A study of Mus musculus with 15 samples.

Results

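The genes described here are 10 senescence and p53 response genes of primary mouse articular chondrocytes: *Cdkn1a*, *Cdkn2a*, *Cdkn2b*, *Trp53*, *Mdm2*, *Ccng1*, *Gdf15*, *Sesn2*, *Bbc3* and *Lmnb1*. They were chosen by name, as the rows of these genes in a pair of count tables that each list 24134 genes by Entrez ID, and all 10 had enough counts to be tested in both. The cells came from femoral condyles and tibial plateaus of ICR mice aged 4 to 5 days and were used at passage 0. In the siRNA table, cells transfected by METAFECTENE PRO with control siRNA (siCtrl) were compared with cells in which siRNAs targeted *Tnks* as well as *Tnks2* (siTnks/2), the genes of the tankyrases. No time after transfection was given. In the drug table, cells kept for 108 h in DMSO were compared with cells kept as long in 10 μM XAV939 or 10 μM IWR-1, which both block tankyrase activity. Each of the 5 groups held 3 libraries, made with a stranded poly(A) RNA kit. The methods call the libraries of a group biological replicates. Which animals or cultures they came from was not given, so p-values measure the spread between these libraries.

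The p53 protein, encoded by *Trp53*, is a transcription factor that is kept scarce by the ubiquitin ligase MDM2 and accumulates after DNA damage and other stress. It switches on genes that stop the cell cycle or start cell death, and *Mdm2* is itself one of its targets, which closes a negative feedback loop. Senescence is a lasting exit from the cell cycle that is held by inhibitors of cyclin-dependent kinases (CDKs) and is marked by loss of the nuclear lamina protein lamin B1. Senescent chondrocytes accumulate in osteoarthritic cartilage.

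Positions on the mm10 assembly are given for 9 of the 10 genes, all but *Lmnb1*. *Cdkn1a* was at chr17:29090979-29100722, *Trp53* at chr11:69580348-69591873, *Mdm2* at chr10:117688875-117710758 and *Ccng1* at chr11:40748552-40755309. *Cdkn2a*, at chr4:89274473-89294619, and *Cdkn2b*, at chr4:89306289-89311032, are neighbours at the INK4 locus, and *Sesn2* was at chr4:132492804-132510456. *Gdf15* was at chr8:70629393-70632470 and *Bbc3* at chr7:16308398-16318334. All 10 genes are protein coding, and their counts pool the reads of all exons of a gene. The annotated transcripts of *Cdkn2a*, which encode an INK4 protein and the ARF protein, could therefore not be told apart. Exons of *Cdkn1a* share 273 bases, 10.0% of its exon bases, with a poorly characterized gene on the opposite strand, and the strand setting of the counting was not given in the sources used here.

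Promoter windows, taken from 250 bases before to 50 bases after annotated starts in RefSeq (GRCm38.p6, the same assembly as mm10), matched 9 of the 10 genes in 14 windows. The 10-base half-site consensus of p53 was searched on both strands, and it was found in 2742 of 32817 windows of all genes, or 8.36%. Of the 14 windows, 4 held a match. They belonged to 4 of the 9 genes, namely *Cdkn1a*, *Trp53*, *Mdm2* and *Ccng1*. The windows of 3 known p53 targets and those of the INK4 locus are shown 5′ to 3′ on the strand of the gene, and capitals mark each half-site match. The *Trp53* window is not shown, and a link between matches and the changes below was not tested. The first *Cdkn1a* window held 2 matches, the *Mdm2* and *Ccng1* windows held 1 each, and the *Cdkn2a* and *Cdkn2b* windows held 0. A match describes these letters only.
Cdkn1a, upstream start, chr17:29090729-29091028, plus strand: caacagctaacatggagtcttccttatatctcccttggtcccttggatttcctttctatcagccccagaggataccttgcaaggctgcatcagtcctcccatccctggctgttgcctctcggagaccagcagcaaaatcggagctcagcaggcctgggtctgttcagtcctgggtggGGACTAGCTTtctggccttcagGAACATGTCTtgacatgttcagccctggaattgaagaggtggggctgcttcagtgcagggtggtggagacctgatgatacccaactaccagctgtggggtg
Mdm2, chr10:117710709-117711008, minus strand: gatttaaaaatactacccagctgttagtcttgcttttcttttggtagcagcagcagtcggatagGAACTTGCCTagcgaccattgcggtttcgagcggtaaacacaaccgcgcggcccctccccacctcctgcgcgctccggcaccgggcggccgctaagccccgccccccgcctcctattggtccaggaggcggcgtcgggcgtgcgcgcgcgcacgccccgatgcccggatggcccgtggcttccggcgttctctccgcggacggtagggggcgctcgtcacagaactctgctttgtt
Ccng1, chr11:40755237-40755536, minus strand: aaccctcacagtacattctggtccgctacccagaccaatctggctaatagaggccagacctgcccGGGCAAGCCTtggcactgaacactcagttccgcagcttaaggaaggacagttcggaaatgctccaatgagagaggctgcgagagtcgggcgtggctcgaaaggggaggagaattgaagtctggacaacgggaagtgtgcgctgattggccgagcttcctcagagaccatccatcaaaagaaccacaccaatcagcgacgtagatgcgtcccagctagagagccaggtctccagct
Cdkn2a, upstream start, chr4:89294570-89294869, minus strand: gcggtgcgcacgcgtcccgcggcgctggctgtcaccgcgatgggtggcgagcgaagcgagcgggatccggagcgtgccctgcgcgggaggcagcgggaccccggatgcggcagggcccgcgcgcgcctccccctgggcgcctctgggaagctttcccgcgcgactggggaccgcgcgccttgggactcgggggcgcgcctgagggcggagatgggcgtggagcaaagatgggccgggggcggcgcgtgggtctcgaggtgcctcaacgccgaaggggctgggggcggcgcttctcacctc
Cdkn2a, downstream start, chr4:89282143-89282442, minus strand: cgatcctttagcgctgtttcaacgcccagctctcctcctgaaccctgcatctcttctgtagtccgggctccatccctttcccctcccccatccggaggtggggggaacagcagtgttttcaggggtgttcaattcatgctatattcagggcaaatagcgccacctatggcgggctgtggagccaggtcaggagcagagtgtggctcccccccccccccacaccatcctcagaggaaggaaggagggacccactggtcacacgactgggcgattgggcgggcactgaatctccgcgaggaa
Cdkn2b, chr4:89310983-89311282, minus strand: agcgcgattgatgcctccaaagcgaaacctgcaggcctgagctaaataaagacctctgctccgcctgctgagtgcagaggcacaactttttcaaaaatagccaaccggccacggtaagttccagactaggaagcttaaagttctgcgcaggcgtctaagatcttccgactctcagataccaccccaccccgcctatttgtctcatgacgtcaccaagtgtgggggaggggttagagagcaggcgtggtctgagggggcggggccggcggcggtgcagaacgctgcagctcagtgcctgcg

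Library totals lay between 26857070 and 31254278 counts in the siRNA table and between 27438611 and 36615194 in the drug table. *Tnks* fell by 1.81 ± 0.22 (SE) on the log2 scale in the knockdown libraries (adjusted p = 0.00569) and *Tnks2* fell by 1.10 ± 0.11 (adjusted p = 0.00384). All 13 chondrocyte markers were above 1 CPM (counts divided by the scaled library total) in every library. Their summed level was 139100 to 223800 CPM in siTnks/2 against 96110 to 128300 CPM in siCtrl, and in the drug table it was 28990 to 39410 CPM in DMSO, 41200 to 61580 in XAV939 libraries and 99170 to 125800 in IWR-1 libraries. The 6 fibroblast markers summed to 2781 to 7808 CPM in siTnks/2 against 5289 to 9044 CPM in siCtrl, and in the drug table to 12040 to 15080 CPM in DMSO, 6226 to 8120 in XAV939 libraries and 5747 to 8645 in IWR-1 libraries. The 10 leukocyte markers summed to 33.8 to 56.7 CPM in siTnks/2 against 13.4 to 15.7 CPM in siCtrl, with *Cd3e* at 0 in all of these libraries, and to 9.51 to 14.0 CPM in the drug table. The 4 adipocyte markers summed to 36.6 to 49.7 CPM in DMSO, 25.1 to 30.9 in XAV939 libraries and 11.7 to 16.5 in IWR-1 libraries, and to 7.01 to 11.7 CPM in siTnks/2 against 4.07 to 6.21 CPM in siCtrl. The 5 osteoblast markers summed to 77.6 to 132 CPM in siTnks/2 against 59.5 to 71.1 CPM in siCtrl, and to 42.6 to 66.4 CPM in the drug table, where the groups overlapped. Endothelial, skeletal muscle and erythroid markers each summed to at most 8.88 CPM in any library. The part of these cell type markers in the results below was not tested, and in bulk RNA fewer cells of a type and less RNA per cell cannot be told apart. Knockdown replicate 2 stood apart: its 25 E2F and proliferation genes summed to 340 CPM, against 789 and 864 CPM in the other knockdown libraries and 1070 to 1109 CPM in siCtrl.

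*Cdkn1a*, which encodes the main CDK inhibitor induced by p53, was the most abundant of the 10 genes per length of exon. On the scale of CPM per kilobase its mean level was 218 in DMSO and 143 in siCtrl. It was followed by *Ccng1*, with 107 CPM per kilobase in DMSO and 115 in siCtrl, whose range in each control lay below that of *Cdkn1a*. *Mdm2* and *Trp53* came next, at 70.7 and 59.7 CPM per kilobase in DMSO and at 43.9 and 49.7 in siCtrl, and their ranges overlapped in both controls. In DMSO, *Cdkn2b* followed at 44.5 CPM per kilobase, overlapping *Trp53*, and then *Gdf15* at 21.3 and *Sesn2* at 19.5, which overlapped each other. *Bbc3* at 11.9 and *Cdkn2a* at 9.04 CPM per kilobase overlapped as well, and *Lmnb1* was lowest at 5.72. In siCtrl the order of the remaining genes was *Sesn2*, *Cdkn2b*, *Gdf15*, *Bbc3*, *Lmnb1* and *Cdkn2a*, from 18.7 to 6.98 CPM per kilobase, and each overlapped the next in this order except that *Cdkn2b* lay above *Gdf15*. With XAV939 the first 4 genes were *Cdkn1a*, *Ccng1*, *Trp53* and *Mdm2*, at 129, 90.3, 68.8 and 38.6 CPM per kilobase. The range of *Trp53* lay above that of *Mdm2*, whereas the range of *Ccng1* overlapped those of *Cdkn1a* and *Trp53*. With IWR-1, *Trp53* was second at 84.4 CPM per kilobase, with its range below that of *Cdkn1a* (95.1) and above that of *Ccng1* (72.0).

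**Figure D1:**
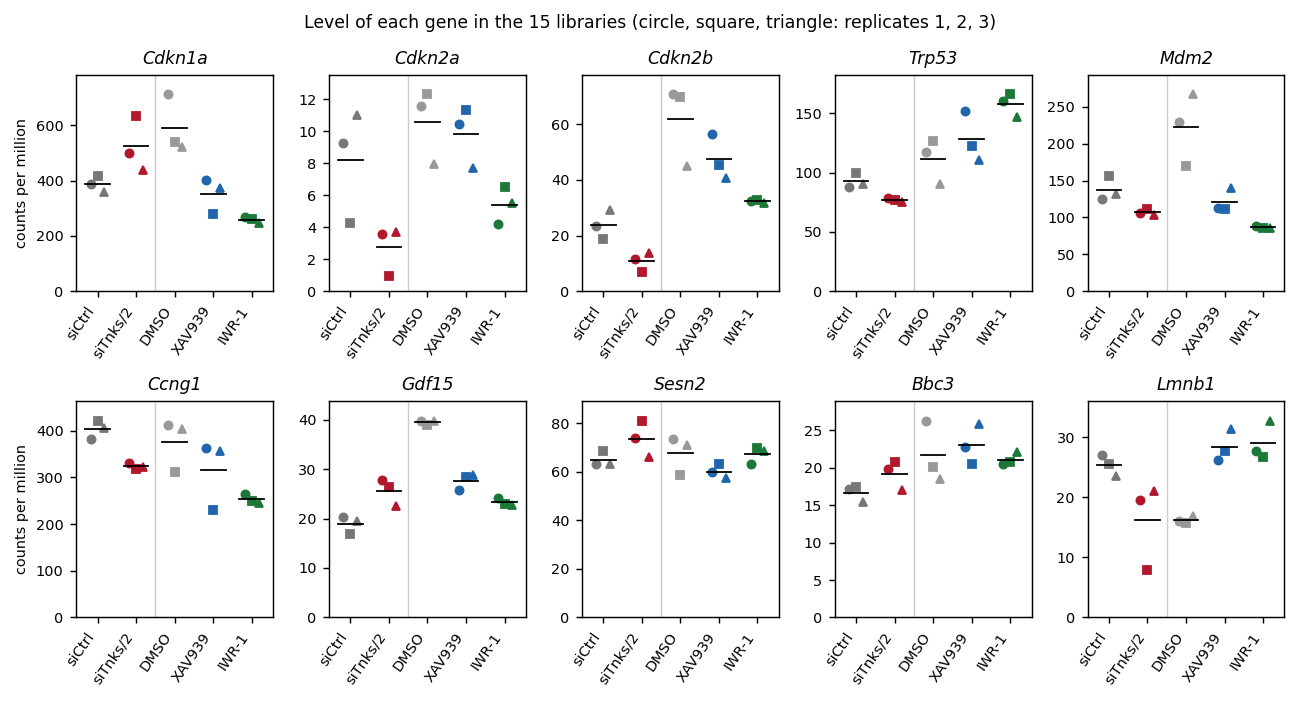
Level in CPM (vertical axes, each from 0) of the 10 genes in the 15 libraries, grouped by treatment along the horizontal axis. Points are libraries, with circle, square and triangle for replicates 1, 2 and 3, and bars are group means. *Cdkn1a*, *Mdm2* and *Gdf15* are lower in all libraries of both inhibitors than in all DMSO libraries, while *Cdkn1a* and *Gdf15* are higher in all 3 siTnks/2 libraries than in all siCtrl libraries.

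The siRNA table asked how the senescence and p53 response genes stood when both tankyrases were depleted. At an adjusted p under 0.05, 1 of the 10 genes rose, *Gdf15*, and 4 fell, *Cdkn2b*, *Trp53*, *Mdm2* and *Ccng1*. Among all 13672 genes tested, 10.4% were called higher and 7.61% lower. The median log2 fold change of the 10 genes was -0.29, beside a median of -0.001 over all genes. For 8 of the 10 genes the 3 knockdown libraries lay wholly on one side of the 3 control libraries, beside 43.8% of all genes tested. For a single gene the exact two-sided permutation test of 3 against 3 libraries cannot go below p = 0.1.

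The largest fold changes of the 10 genes were at the INK4 locus. *Cdkn2b*, which encodes an inhibitor of the CDKs that act early in the cell cycle, stood at 23.5, 18.7 and 29.1 CPM in siCtrl replicates 1 to 3 and at 11.6, 6.77 and 13.6 CPM in siTnks/2. The highest knockdown library lay below the lowest control, and the level was 2.23-fold lower (log2 fold change -1.16 ± 0.27, adjusted p = 0.0307). *Cdkn2a* stood at 9.24, 4.29 and 11.0 CPM in siCtrl and at 3.57, 0.927 and 3.72 CPM in siTnks/2. Replicate 2 was the lowest library in each group, with 26 counts in the knockdown. The difference of -1.58 ± 0.53 on the log2 scale did not pass the test (adjusted p = 0.0804), but in the paired fit with a replicate block it was -1.63 ± 0.17 and passed (adjusted p = 0.00353).

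*Cdkn1a* was at 388, 419 and 358 CPM in siCtrl and at 501, 635 and 437 CPM in siTnks/2. Every knockdown library exceeded every control. The difference of 0.43 ± 0.14 on the log2 scale missed the threshold (adjusted p = 0.0739), and in the paired fit it was 0.42 ± 0.07 and passed (adjusted p = 0.0118). Replicate 2 was the highest library in both groups. Of the 6 fits that left out a library, 1 passed, that without knockdown replicate 3 (0.55, adjusted p = 0.0368). In these 6 fits the difference lay between 0.27 and 0.55, with adjusted p up to 0.209.

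The p53 gene and its feedback genes changed less, with little spread between libraries. *Trp53* was at 88.2, 100.0 and 90.5 CPM in siCtrl and at 78.4, 76.7 and 75.6 CPM in siTnks/2 (log2 fold change -0.27 ± 0.06, adjusted p = 0.0308). *Mdm2*, the ubiquitin ligase gene, was at 125, 157 and 132 CPM against 106, 112 and 104 CPM (-0.37 ± 0.09, adjusted p = 0.0372). *Ccng1* encodes cyclin G1, which acts with a phosphatase in the feedback on MDM2 and p53. It stood at 383, 422 and 406 CPM in siCtrl and at 331, 317 and 323 CPM in siTnks/2 (-0.32 ± 0.06, adjusted p = 0.0197). In all 3 genes the groups did not overlap, and the levels fell by 17.2% to 22.4%.

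*Gdf15* encodes a secreted stress cytokine of the TGF-β family. It rose from 20.3, 16.9 and 19.5 CPM in siCtrl to 27.8, 26.5 and 22.5 CPM in siTnks/2, which was 1.35-fold (log2 fold change 0.44 ± 0.11, adjusted p = 0.0374). *Sesn2*, for a stress sensor that restrains mTORC1, and *Bbc3*, for the pro-apoptotic protein PUMA, did not pass the test. *Sesn2* was at 63.2 to 68.6 CPM in siCtrl and at 66.1 to 81.2 CPM in siTnks/2 (0.18 ± 0.09, adjusted p = 0.18). *Bbc3* was at 15.4 to 17.5 and 17.0 to 20.8 CPM (0.20 ± 0.10, adjusted p = 0.199), and in both genes the groups overlapped.

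*Lmnb1*, the gene of lamin B1, was at 27.1, 25.7 and 23.6 CPM in siCtrl and at 19.6, 7.99 and 21.1 CPM in siTnks/2. All knockdown libraries lay below all controls, with replicate 2 far below the others. The difference of -0.65 ± 0.32 on the log2 scale did not pass the test (adjusted p = 0.196). Of the 6 fits that left out a library, 1 passed, that without knockdown replicate 2 (-0.32, adjusted p = 0.0407). In these 6 fits the difference lay between -0.88 and -0.32, with adjusted p up to 0.366. The proliferation genes of knockdown replicate 2 were low as well, and their part in the *Lmnb1* value was not tested.

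The knockdown calls depended on single libraries. Without siCtrl replicate 1, 2 or 3, or siTnks/2 replicate 1, edgeR called 0 of the 10 genes, while 5 to 7 of them had an unadjusted p under 0.05, and the genes called among all tested fell from 2459 to between 608 and 930. Without siTnks/2 replicate 2, 5 genes were called, all lower, beside 2868 of all 13796 genes tested. Without siTnks/2 replicate 3, 4 were called, beside 2229 of 13809. DESeq2 on all 6 libraries and the replicate block each called 7 of the 10 genes, beside 23.2% and 34.6% of all genes.

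**Figure D2:**
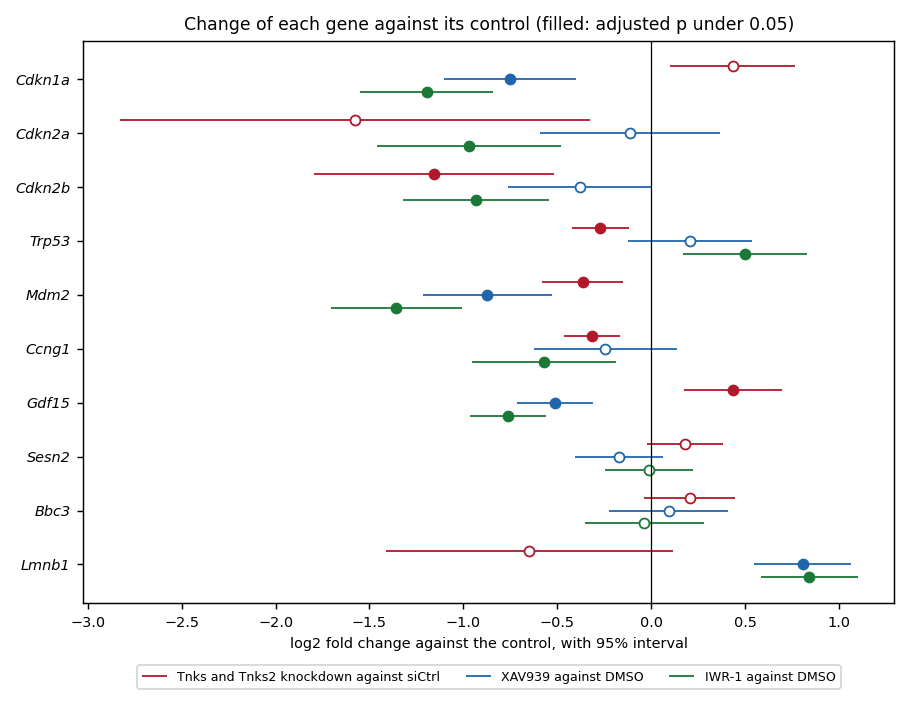
Log2 fold change of the 10 genes against the control of the same table (horizontal axis), for the knockdown, XAV939 and IWR-1. Lines are 95% intervals and filled points have an adjusted p under 0.05. *Cdkn1a* and *Gdf15* lie above 0 with the knockdown and below 0 with both inhibitors, and *Lmnb1* lies below 0 with the knockdown and at 0.81 and 0.84 with the inhibitors.

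The drug table asked the same of the tankyrase inhibitors. With XAV939, 1 of the 10 genes was called higher, *Lmnb1*, and 3 were called lower, *Cdkn1a*, *Mdm2* and *Gdf15*. Of the 13873 genes tested in this table, 7.57% were called higher and 9.85% lower with XAV939. With IWR-1, 2 genes were called higher, *Trp53* and *Lmnb1*, and 6 were called lower, *Cdkn1a*, *Cdkn2a*, *Cdkn2b*, *Mdm2*, *Ccng1* and *Gdf15*, beside 16.2% and 20.2% of all genes. The median log2 fold change of the 10 genes was -0.21 with XAV939 and -0.67 with IWR-1, beside 0.016 and 0.006 over all genes. The inhibitors share the DMSO libraries, so their values are given side by side.

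*Cdkn1a* stood at 713, 539 and 523 CPM in DMSO. With XAV939 it was at 402, 280 and 373 CPM and with IWR-1 at 270, 260 and 246 CPM, so that no treated library reached the lowest DMSO library. Its level was 1.68-fold lower with XAV939 (log2 fold change -0.75 ± 0.16, adjusted p = 0.00895) and 2.29-fold lower with IWR-1 (-1.20 ± 0.16, adjusted p = 0.000207). *Cdkn2a* was at 11.6, 12.3 and 7.92 CPM in DMSO, at 10.4, 11.3 and 7.72 CPM with XAV939 and at 4.19, 6.52 and 5.54 CPM with IWR-1. Only the IWR-1 libraries lay below all DMSO libraries (-0.97 ± 0.22, adjusted p = 0.00577), and the XAV939 difference was -0.11 ± 0.22 (adjusted p = 0.758).

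*Cdkn2b* was at 70.8, 69.9 and 44.8 CPM in DMSO, where replicate 3 was the low library. It stood at 56.4, 45.5 and 40.7 CPM with XAV939, overlapping DMSO, and at 32.6, 32.8 and 31.7 CPM with IWR-1, below all DMSO libraries. The difference was -0.93 ± 0.18 with IWR-1 (adjusted p = 0.0018). With XAV939 it was -0.38 ± 0.17 and not called (adjusted p = 0.158), whereas the paired fit called it at -0.37 ± 0.12 (adjusted p = 0.0368). Of the 9 fits that left out a library, 1 called it, that without DMSO replicate 3 (-0.58, adjusted p = 0.014). In these 9 fits the XAV939 difference lay between -0.58 and -0.27, with adjusted p up to 0.394.

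*Trp53* was at 118, 127 and 90.2 CPM in DMSO, at 152, 122 and 111 CPM with XAV939 and at 160, 166 and 147 CPM with IWR-1. The IWR-1 libraries lay above all DMSO libraries and the XAV939 libraries overlapped them. The rise was 1.41-fold with IWR-1 (log2 fold change 0.50 ± 0.15, adjusted p = 0.0229), and the XAV939 value was 0.20 ± 0.15 (adjusted p = 0.373). While the transcript of p53 rose with IWR-1, that of its target and inhibitor *Mdm2* showed the largest fall of the 10 genes. *Mdm2* stood at 229, 170 and 267 CPM in DMSO, at 113, 111 and 140 CPM with XAV939 and at 87.7, 86.3 and 86.1 CPM with IWR-1, with no overlap with DMSO. It was 1.83-fold lower with XAV939 (-0.87 ± 0.16, adjusted p = 0.00369) and 2.56-fold lower with IWR-1 (-1.36 ± 0.16, adjusted p = 8.1e-05). *Ccng1* was at 412, 312 and 404 CPM in DMSO, at 362, 231 and 358 CPM with XAV939 and at 264, 249 and 246 CPM with IWR-1. It was lower with IWR-1 (-0.57 ± 0.17, adjusted p = 0.0242), and its XAV939 libraries overlapped DMSO (-0.24 ± 0.17, adjusted p = 0.355). The calls of *Ccng1* and *Trp53* with IWR-1 were lost in 5 and 3 of the 9 fits that left out a library. These libraries were DMSO replicates 1 and 3 and each IWR-1 replicate for *Ccng1*, and DMSO replicate 3 and IWR-1 replicates 1 and 2 for *Trp53* (adjusted p between 0.0519 and 0.0889).

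*Gdf15* was tight in each group, at 39.8, 39.0 and 39.6 CPM in DMSO, 25.7, 28.5 and 28.9 in XAV939 libraries and 24.1, 22.9 and 22.8 in IWR-1 libraries. It fell by 0.51 ± 0.09 on the log2 scale with XAV939 (adjusted p = 0.00364) and by 0.76 ± 0.09 with IWR-1 (adjusted p = 0.000106). *Sesn2* and *Bbc3* overlapped DMSO with either inhibitor. Their log2 fold changes lay between -0.17 and 0.09, with 95% intervals that reached from -0.41 to 0.41 in all, and their adjusted p-values were between 0.288 and 0.951.

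*Lmnb1* moved up. It was at 16.1, 15.7 and 17.0 CPM in DMSO, at 26.2, 27.7 and 31.5 CPM with XAV939 and at 27.8, 26.7 and 32.8 CPM with IWR-1, and every treated library exceeded every DMSO library. The rise was 1.75-fold with XAV939 (log2 fold change 0.81 ± 0.12, adjusted p = 0.00124) and 1.79-fold with IWR-1 (0.84 ± 0.12, adjusted p = 0.000266). The summed level of the 25 E2F and proliferation genes was 1148 to 1350 CPM in DMSO, 1372 to 1618 in XAV939 libraries and 1055 to 1356 in IWR-1 libraries. With IWR-1 this sum overlapped DMSO while *Lmnb1* did not.

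**Figure D3:**
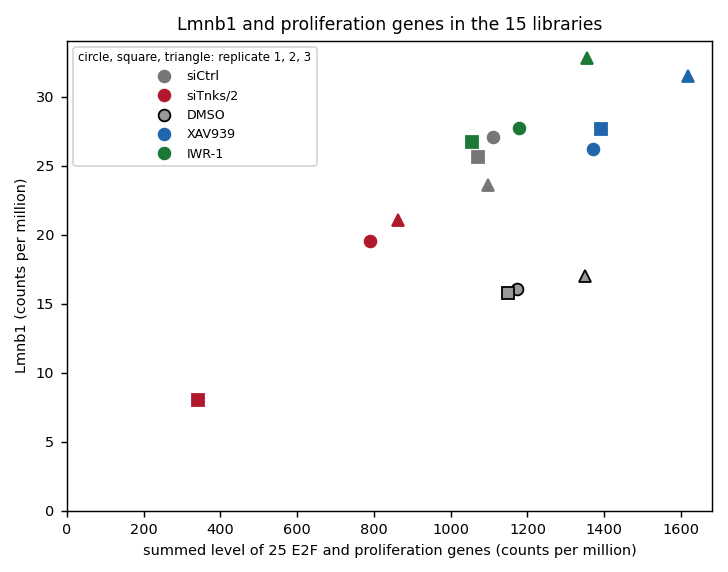
*Lmnb1* (vertical axis, CPM) against the summed level of 25 E2F and proliferation genes (horizontal axis, CPM) in the 15 libraries, both axes from 0. Each point is a library, coloured by group. siTnks/2 replicate 2 lies at 7.99 and 340, and the DMSO libraries lie lower on the vertical axis than the siCtrl, XAV939 and IWR-1 libraries.

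IWR-1 and XAV939 were also compared directly, at the same dose and time. IWR-1 gave a lower level of *Cdkn2a* than XAV939 (log2 difference -0.86 ± 0.22, adjusted p = 0.0228), the only call among the 10 genes, beside 7.37% of all genes called higher and 10.2% lower. Without XAV939 replicate 1 or 2, or IWR-1 replicate 1 or 3, the *Cdkn2a* call was lost (adjusted p between 0.0572 and 0.0926). *Cdkn1a* (-0.44, 95% interval -0.79 to -0.09), *Cdkn2b* (-0.55, -0.94 to -0.17), *Mdm2* (-0.49, -0.83 to -0.14) and *Gdf15* (-0.25, -0.45 to -0.04) did not pass after adjustment, though in each gene the IWR-1 libraries lay below all XAV939 libraries, beside 19.4% of all genes. With the replicate block, which called 30.7% of all genes, 5 genes were called, *Cdkn1a*, *Cdkn2a*, *Cdkn2b* and *Mdm2* lower and *Trp53* higher (0.30 ± 0.10, adjusted p = 0.0433), with adjusted p = 0.015 for *Cdkn1a*, 0.00678 for *Cdkn2b* and 0.0095 for *Mdm2*. Without DMSO replicate 3, 3 genes were called, beside 3044 of all 14037 genes tested. Without DMSO replicate 2, XAV939 replicate 2 or XAV939 replicate 3, 2 were called. In these fits 2323 of 13991, 2338 of 14064 and 1960 of 14038 genes were called. For *Lmnb1* the difference was 0.03, with a 95% interval from -0.22 to 0.29.

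The knockdown and each inhibitor were then set against each other in 1 model over the 15 libraries, which tests whether the change from the respective control differed. The knockdown change exceeded the XAV939 change for *Cdkn1a* by 1.20 ± 0.23 on the log2 scale (adjusted p = 0.00387) and for *Gdf15* by 0.96 ± 0.14 (adjusted p = 0.000652), and it was below it for *Lmnb1*, by -1.44 ± 0.34 (adjusted p = 0.0127). These were 3 of the 10 genes, beside 13.5% of all genes called in either direction. The share of all calls of this kind that were higher was 59.9%, and 47.3% with upper-quartile scaling. With the replicate block, which called 28.2% of all genes, 7 genes were called, with *Cdkn2a* (-1.51, adjusted p = 0.00109), *Cdkn2b* (-0.80, adjusted p = 0.00558), *Trp53* (-0.46, adjusted p = 0.0187) and *Mdm2* (0.52, adjusted p = 0.0236) in addition. Without DMSO replicate 2, 6 genes were called, beside 1997 of all 14429 genes tested.

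Against IWR-1, 5 of the 10 genes differed, beside 24.4% of all genes. The knockdown change exceeded the IWR-1 change for *Cdkn1a* (1.64 ± 0.23, adjusted p = 0.00015), *Mdm2* (1.005 ± 0.20, adjusted p = 0.00227) and *Gdf15* (1.21 ± 0.14, adjusted p = 3.5e-05). It was below the IWR-1 change for *Trp53* (-0.76 ± 0.18, adjusted p = 0.00618) and *Lmnb1* (-1.48 ± 0.34, adjusted p = 0.00523). For *Mdm2* both changes were decreases. For *Trp53* the knockdown change was a decrease and the IWR-1 change an increase, and *Gdf15* was called in opposite directions. *Cdkn2b*, *Mdm2* and *Ccng1* were called lower in both, so that of the 5 genes called in both comparisons 3 had the same direction. Among all genes, 894 of 1185 called in both had the same direction, or 75.4%. The knockdown and the inhibitors stood in separate tables with controls of their own, so the kind of treatment and the table cannot be told apart.

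**Figure D4:**
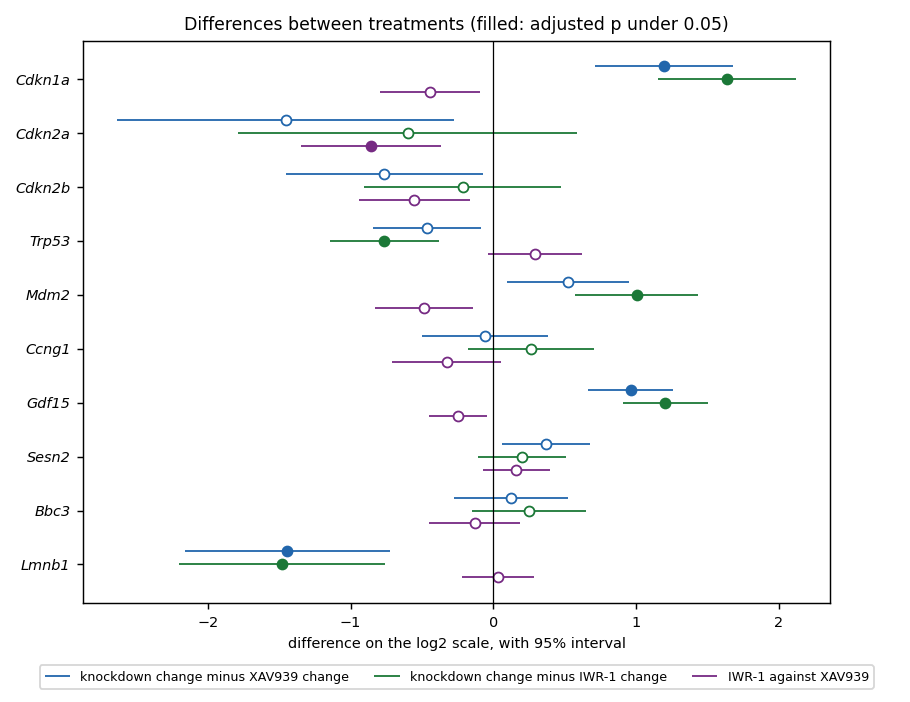
Difference between treatments for each of the 10 genes on the log2 scale (horizontal axis), as knockdown change minus inhibitor change and as IWR-1 against XAV939. Lines are 95% intervals and filled points have an adjusted p under 0.05. *Cdkn1a* and *Gdf15* lie to the right and *Lmnb1* to the left against both inhibitors, and *Cdkn2a* is the filled point of IWR-1 against XAV939.

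Other genes of the same pathways were read from 7 lists. Of 34 other p53 target genes, 6 rose and 8 fell with the knockdown (median log2 fold change -0.06), 3 rose and 6 fell with XAV939 (-0.08), and 1 rose and 20 fell with IWR-1 (-0.49). Of all genes tested, 10.4% were called higher and 7.61% lower with the knockdown. These shares were 7.57% and 9.85% with XAV939, and 16.2% and 20.2% with IWR-1. Among the 34 genes the largest fall with either inhibitor was that of *Pmaip1*, for the pro-apoptotic protein NOXA, at 7.01 ± 2.54 CPM (SD, n = 3) in DMSO, 1.58 ± 0.68 in XAV939 libraries and 1.02 ± 0.32 in IWR-1 libraries. Its log2 fold changes were -2.14 ± 0.34 (SE) and -2.76 ± 0.36. *Sesn1*, a relative of *Sesn2*, was the only one of the 34 to rise with IWR-1 (0.42 ± 0.14, adjusted p = 0.0377), and *Ptprv* had the largest rise with XAV939 (0.75 ± 0.13). With the knockdown, *Gadd45a*, for a growth arrest protein, rose from 36.8 ± 2.74 to 69.5 ± 12.6 CPM (0.92 ± 0.13, adjusted p = 0.00847) and *Psrc1*, for a spindle protein, had the largest fall (-1.20 ± 0.14). In the paired fit, which called 33.4% of all genes with XAV939, 7 rose and 11 fell.

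The regulators of p53 and the DNA damage kinases, with 14 of 15 tested, gave 0 rises and 1 fall with the knockdown, 0 and 1 with XAV939, and 5 and 1 with IWR-1, with medians of -0.11, 0.10 and 0.35. The fall was in each case *Trp63*, for a p53 relative, at -1.16 ± 0.17, -0.50 ± 0.12 and -1.27 ± 0.12 on the log2 scale. *Chek2*, for a checkpoint kinase upstream of p53, had the largest rise with IWR-1 (1.08 ± 0.18, adjusted p = 0.000706). The paired fit called 3, 5 and 11 of these genes, beside 34.6%, 33.4% and 47.5% of all genes. Of the 7 other CDK inhibitors and pocket proteins, *Cdkn1c* rose with the knockdown (0.98 ± 0.17) and with IWR-1 (0.83 ± 0.17). *Rb1*, for the retinoblastoma protein that E2F factors bind, fell with XAV939 (-0.72 ± 0.21, adjusted p = 0.0404) and with IWR-1 (-0.82 ± 0.21). *Rb1* was the only XAV939 call, and 0 of the 7 genes were called in 7 of the 9 XAV939 fits that left out a library. In all, 1 rose and 0 fell, 0 rose and 1 fell, and 1 rose and 2 fell, with medians of 0.04, -0.06 and -0.25, and the paired fit called 4, 3 and 5. Beside the main calls of both lists stand the shares of all genes called higher and lower. They were 10.4% and 7.61% with the knockdown, 7.57% and 9.85% with XAV939, and 16.2% and 20.2% with IWR-1.

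Secreted factors that senescent cells are known to release fell with the inhibitors. Of 28 tested of 32, 0 rose and 16 fell with XAV939 (median -0.79) and 1 rose and 23 fell with IWR-1 (median -2.05). Beside these calls, 7.57% of all genes were called higher and 9.85% lower with XAV939, and 16.2% and 20.2% with IWR-1. The summed level of these secreted factors was 34340 to 36640 CPM in DMSO, 20160 to 26510 in XAV939 libraries and 8705 to 9309 in IWR-1 libraries. In the siRNA table this sum was 4060 to 4645 CPM in siCtrl and 4311 to 5120 in siTnks/2, where the groups overlapped. *Csf2*, for a myeloid growth factor, had 16 to 21 counts in each DMSO library, 2, 1 and 1 counts with XAV939, a ratio of 0.0709 (95% counting interval 0.0190 to 0.195), and 0 counts with IWR-1, at least 6.37-fold lower at a floor of 3 counts per library. *Igfbp5* was the 1 gene that rose (0.94 ± 0.31, adjusted p = 0.0338), with overlapping groups. With the knockdown 24 were tested, and 3 rose and 6 fell (median -0.15), beside 10.4% and 7.61% of all genes. *Mmp10*, for a matrix protease, rose from 1.47 ± 0.36 to 7.50 ± 1.81 CPM (2.35 ± 0.25, adjusted p = 0.00384), and *Ereg*, for an EGF receptor ligand, fell from 45.6 ± 9.27 to 15.9 ± 5.66 CPM (-1.52 ± 0.27, adjusted p = 0.014).

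Of the 25 E2F and proliferation genes, all 25 had a negative log2 fold change with the knockdown (median -0.84). The main edgeR fit called 0, with 10 at an unadjusted p under 0.05. DESeq2 called 8, beside 23.2% of all genes, and the paired fit called 4, beside 34.6%. The fit without knockdown replicate 2 called 16, beside 2868 of all 13796 genes tested in it. All of these calls of proliferation genes were lower. With XAV939, 9 rose and 0 fell (median 0.23), beside 7.57% and 9.85% of all genes. With IWR-1, 2 rose and 7 fell (median -0.13), beside 16.2% and 20.2% of all genes. *Mcm2*, for a subunit of the replicative helicase, had the largest rise with both, from 39.6 ± 3.49 CPM in DMSO to 75.2 ± 18.5 in XAV939 libraries (0.92 ± 0.16) and 86.0 ± 6.10 in IWR-1 libraries (1.12 ± 0.16), and *Ccne2*, for cyclin E2, had the largest fall with IWR-1 (-0.79 ± 0.24).

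*Sesn2* and *Gdf15* are also known targets of ATF4 in the integrated stress response, whose 21 other genes gave 5 rises and 1 fall with the knockdown (median 0.22), 6 and 2 with XAV939 (0.25), and 14 and 2 with IWR-1 (0.71). Beside these calls, 10.4% of all genes were called higher and 7.61% lower with the knockdown. These shares were 7.57% and 9.85% with XAV939, and 16.2% and 20.2% with IWR-1. *Chac1*, for a glutathione-degrading enzyme, rose most with IWR-1, from 33.4 ± 3.54 to 92.9 ± 8.56 CPM (1.48 ± 0.14), and *Ddit4*, for an mTORC1 inhibitor, fell most (-0.98 ± 0.10). *Atf3* rose most with the knockdown (0.73 ± 0.10) and fell most with XAV939 (-0.95 ± 0.16). *Phgdh*, for serine synthesis, had the largest fall with the knockdown (-0.28 ± 0.08) and the largest rise with XAV939 (0.88 ± 0.18). The paired fit called 15 with the knockdown, 13 of them higher, and 14 with XAV939, 10 of them higher. It called 34.6% and 33.4% of all genes in these comparisons.

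Among 15 nuclear envelope and chromatin genes of senescence, 0 rose and 6 fell with the knockdown (median -0.22), 1 rose and 0 fell with XAV939 (median -0.003) and 1 rose and 1 fell with IWR-1 (median -0.04). Beside these calls, 10.4% of all genes were called higher and 7.61% lower with the knockdown. These shares were 7.57% and 9.85% with XAV939, and 16.2% and 20.2% with IWR-1. *Hmga2*, for a chromatin protein of proliferating cells, had the largest fall with the knockdown, from 122 ± 25.1 to 46.5 ± 9.47 CPM (-1.40 ± 0.19, adjusted p = 0.00773). *Ezh2* rose with XAV939 (0.30 ± 0.09, adjusted p = 0.0466) and IWR-1 (0.36 ± 0.09). With XAV939, 0 of the 15 genes were called in 7 of the 9 fits that left out a library. *Glb1*, which encodes the lysosomal β-galactosidase read as a senescence stain, fell with IWR-1 (-0.51 ± 0.12, adjusted p = 0.00659). The paired fit called 2 with XAV939 and 5 with IWR-1, beside 33.4% and 47.5% of all genes.

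**Figure D5:**
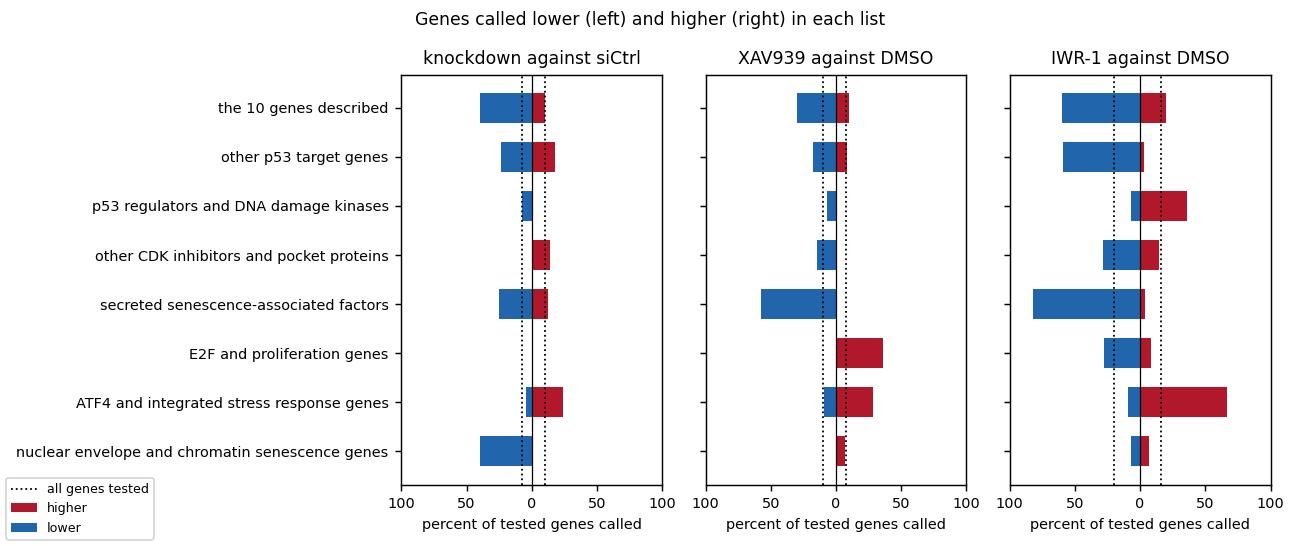
Percent of tested genes called lower (left, blue) and higher (right, red) at an adjusted p under 0.05, for the 10 genes and the 7 lists in each comparison with a control. Dotted lines give the percent of all genes tested. With IWR-1, 20 of 34 other p53 target genes and 23 of 28 secreted factors were lower, and 14 of 21 ATF4 genes were higher.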

How the data were processed

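The values analysed were gene counts of 15 RNA-seq libraries. According to the methods and the processing notes, the authors used Trimmomatic 0.32 to trim reads, TopHat2 2.0.13 for alignment to mm10 and HTSeq 0.6.1p1 to count reads per gene, and the deposited values are these raw counts. How the counting treated strand and which gene models it used are not given in the sources used here. Of 24134 Entrez IDs, 24051 matched a symbol, and 0 columns of per-sample values were left unused.

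Counts were tested in R 4.3.3 with edgeR 4.0.16 (TMM factors, filterByExpr, quasi-likelihood F test), in 1 fit per table and, for differences between knockdown and inhibitor changes, in 1 fit of all 15 libraries (14271 genes). All tested genes entered the Benjamini-Hochberg adjustment, and genes with an adjusted p under 0.05 were called. A prior count of 2 entered the log2 fold changes, ± is the standard error where no SD is named, and CPM were scaled within each table. Reads carry no molecular identifiers, so counting intervals and floors cover counting error only. Within-group library pairs differed by 7.65 or more in chi-square per gene, so none was counted as a duplicate.

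Libraries were numbered 1 to 3 in the labels of every group. After removal of group means, same-numbered libraries correlated at 0.424 to 0.519 in the siRNA table and 0.143 to 0.553 in the drug table. All were above the limit of 0.1, so a paired fit with a replicate block was run. Libraries with different numbers correlated at -0.409 to 0.0972 in the siRNA table and -0.489 to 0.318 in the drug table. In the drug table these ranges overlapped, and DMSO replicate 2 correlated more with XAV939 replicate 1 (0.318) than with XAV939 replicate 2 (0.143). The limit therefore does not establish that the numbers pair the drug libraries.

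The 10 genes, 7 gene lists and the cell type markers were chosen with earlier results of these data known. Beside the 10 genes, *Tnks* and *Tnks2*, the text names from each list the called gene with the largest rise and the largest fall in each comparison with a control, and for *Cdkn1a*, *Cdkn2b* and *Lmnb1* the 3 genes most like each. Alternatives were RLE and upper-quartile factors, no filter, at least 10 counts in every library, DESeq2 1.42.0, the replicate block, drug fits without the group not compared, and leaving out each library. The same alternatives for the lists and for the differences between knockdown and inhibitor changes of single genes were added after seeing the data. The tests were checked on simulated data.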

Additional observations from a re-analysis of the deposited data

Results flagged for a closer look

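In 8 cases the change of a gene with the knockdown differed from its change with an inhibitor by the test of the difference itself (edgeR, 1 model over 15 libraries). Against XAV939, the knockdown change was larger by 1.20 ± 0.23 on the log2 scale for *Cdkn1a*, by 0.96 ± 0.14 for *Gdf15*, and the difference was -1.44 ± 0.34 for *Lmnb1*. Against IWR-1 the differences were 1.64 ± 0.23 for *Cdkn1a*, 1.005 ± 0.20 for *Mdm2*, 1.21 ± 0.14 for *Gdf15*, -0.76 ± 0.18 for *Trp53* and -1.48 ± 0.34 for *Lmnb1*. *Cdkn1a* was higher in 3 of 3 pairs of knockdown and control libraries with the same number and lower in 3 of 3 pairs with each inhibitor, and the same held for *Gdf15*. *Lmnb1* was lower in 3 of 3 knockdown pairs and higher in 3 of 3 pairs with each inhibitor. For these genes the groups did not overlap, so any pairing would give 3 of 3, and the pairs add no further support. The knockdown value of *Lmnb1* rests in part on siTnks/2 replicate 2. With any 1 library left out, the *Lmnb1* differences lay between -1.68 and -1.12 against XAV939 and between -1.72 and -1.15 against IWR-1, all of them called.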

How the results depend on the processing

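Called log2 fold changes of the 10 genes, and those of *Tnks* and *Tnks2* with the knockdown, changed sign under 0 of the alternatives. The 5 knockdown calls became 7 with DESeq2 and 7 with the replicate block, and 0 to 5 when a library was left out. The 4 XAV939 calls became 5 with the block and were 4 to 5 with a library left out, and the 8 IWR-1 calls stayed at 8 except for 6 to 8 with a library left out. The single call of IWR-1 against XAV939 became 2 with RLE factors, 3 with upper-quartile factors, 2 with no filter, 4 with DESeq2, 5 with the replicate block, 3 in the fit of only these groups, and 0 to 3 with a library left out, where the fits with 0 calls had 3 to 5 genes at an unadjusted p under 0.05. The 3 differences between knockdown and XAV939 changes became 4 with DESeq2, 7 with the block and 3 to 6 with a library left out, and the 5 against IWR-1 stayed at 5 in every fit. Beyond the genes given in the report the block changed no call of the 10 genes. Of the lists, the block moved the calls of p53 regulators from 1, 1 and 6 (knockdown, XAV939, IWR-1) to 3, 5 and 11, of other CDK inhibitors from 1, 1 and 3 to 4, 3 and 5, of ATF4 genes from 6 and 8 to 15 and 14 with knockdown and XAV939, of other p53 targets from 9 to 18 with XAV939, of nuclear envelope genes from 1 and 2 to 2 and 5 with XAV939 and IWR-1, and of proliferation genes from 0 to 4 with the knockdown. DESeq2 moved the knockdown calls of these lists to 2 for p53 regulators, 3 for CDK inhibitors, 8 for proliferation genes and 11 for ATF4 genes. It called 23.2% of all genes with the knockdown. With a library left out, knockdown calls ranged from 5 to 17 for other p53 targets, 2 to 9 for secreted factors, 1 to 7 for nuclear envelope genes, 2 to 10 for ATF4 genes, 0 to 16 for proliferation genes, 1 to 3 for p53 regulators and 0 to 2 for other CDK inhibitors. With XAV939 they ranged from 5 to 10, 12 to 17, 0 to 1, 5 to 10, 5 to 9, 0 to 4 and 0 to 2 (with 0 CDK inhibitors called in 7 of 9 fits), and with IWR-1 from 16 to 23, 23 to 25, 2 to 3, 16 to 17, 5 to 11, 3 to 7 and 3 to 4, in the same order. The block raised the calls over all genes as well, from 2459, 2416 and 5049 to 4727, 4630 and 6593. With a library left out, calls over all genes ranged from 608 to 2868 with the knockdown and 1322 to 2484 with XAV939. They ranged from 3771 to 5669 with IWR-1 and from 1343 to 3044 for IWR-1 against XAV939. The cause of these shifts was not tested. At 3 libraries a group, *Cdkn2a*, with 26 counts in its lowest library, had the largest SE of the 10 knockdown values (0.53).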

Other observations

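Genes whose level most resembled that of *Cdkn1a*, *Cdkn2b* or *Lmnb1* were read from the 9 drug libraries by Pearson's r of log2 CPM, among 13332 other genes. For *Cdkn1a* these were Atxn7l2 (r = 0.992), Samd14 (0.989) and Slitrk6 (0.988), for *Cdkn2b* Selenom (0.988), Arrdc1 (0.983) and Ctsf (0.982), and for *Lmnb1* Sfswap (0.988), Eef1a2 (0.987) and Aldh16a1 (0.982). The 9 libraries fall into 3 treatment groups, and the values of r include the differences between these groups. In the 6 siRNA libraries the same pairs had r between -0.96 and 0.93, with Slitrk6 at 0.93 with *Cdkn1a*, Samd14 at -0.81 with *Cdkn1a* and Ctsf at -0.96 with *Cdkn2b*.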
